A study of Mus musculus with 24 samples.

Results

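Slc13a2, Slc13a3, Slc13a4 and Slc13a5 encode 4 members of the SLC13 family of sodium-coupled anion transporters. They were measured by 5 of 55681 distinct gene probes on mouse liver arrays, found by the gene name in the array design, and all 4 were among 15359 genes tested. The family was chosen because the signal of Slc13a2 was lower in the livers of all 3 mouse strains on a diet lacking choline and folate, and members were thus selected on the diet effect of Slc13a2, which is given as a description with no test. That choice named no other member, strain difference or pathway list, though the members and lists were set with earlier results of these data known. The strain differences of Slc13a2 on one diet use part of the values behind that choice.

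SLC13 transporters move negatively charged metabolites into cells together with sodium. Slc13a2 carries succinate, citrate and other intermediates of the tricarboxylic acid cycle and is best known from the brush border of kidney tubule and small intestine. Slc13a3 carries the same dicarboxylates with higher affinity and is found in kidney, liver and brain. Slc13a5 prefers citrate and is prominent in liver, where cytosolic citrate feeds fatty acid synthesis. Slc13a4 carries sulfate rather than carboxylates and is known mainly from placenta and brain, so the family's working name does not cover it.

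RNA came from whole liver of male mice of 3 inbred strains, A/J, C3H/HeJ and the wild-derived WSB/EiJ. From 8 weeks of age they ate for 12 weeks, to an age of 20 weeks, either a choline- and folate-deficient (CFD) or a control diet, both iron-supplemented and amino acid-defined. The CFD diet held 0.17% methionine by weight and neither choline nor folic acid. In the control diet methionine was at 0.4%, folic acid at 2 mg/kg and choline bitartrate at 0.3%. The deficient diet thus differed from its control in methionine too. The 6 groups were A/J CFD, A/J control, C3H/HeJ CFD, C3H/HeJ control, WSB/EiJ CFD and WSB/EiJ control, with 4 arrays each. Nothing in the labels ties each array to its own animal. The p-values therefore cover the spread of these samples, which may be technical.

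Values below are scaled signals, the background-subtracted spot intensity as a percent of the 75th percentile of the gene probes of the same array, listed for replicates 1 to 4. A scaled signal can be compared between arrays for one probe, not between probes. Log2 changes with their standard errors come from 1 limma fit over all 24 arrays, and adjusted p-values are Benjamini-Hochberg values over the 15359 genes. A change was called where that value was under 0.05.

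The stretches of 250 bases before the annotated starts of Slc13a2 and Slc13a3 are shown because these genes changed in opposite directions. They are RefSeq sequences of the mouse reference assembly GRCm38.p6, which is not of the strains studied, and lie at chr11:78422235-78422484 and chr2:165473198-165473447, both on the minus strand, written 5′ to 3′. Capitals mark matches on either strand to 5 short motifs that were searched, TATAA (the core of a TATA box), GTTAAC (letters of the site of hepatocyte nuclear factor 1), the CCAAT box, the GC box GGGCGG and the core letters TGACG of the cyclic AMP response element.
Slc13a2: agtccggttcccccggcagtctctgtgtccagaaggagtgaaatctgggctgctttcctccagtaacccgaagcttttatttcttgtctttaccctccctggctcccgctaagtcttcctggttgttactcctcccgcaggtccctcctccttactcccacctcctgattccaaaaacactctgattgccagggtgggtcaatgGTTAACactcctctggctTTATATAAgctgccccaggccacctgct
Slc13a3: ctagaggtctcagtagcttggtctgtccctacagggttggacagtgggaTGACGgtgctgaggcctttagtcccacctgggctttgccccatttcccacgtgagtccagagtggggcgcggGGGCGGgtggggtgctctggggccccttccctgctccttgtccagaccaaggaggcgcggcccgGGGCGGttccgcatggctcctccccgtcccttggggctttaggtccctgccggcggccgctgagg

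The Slc13a2 stretch held GTTAAC starting 46 bases before the gene start and TATAA at 25 bases, with a second TATAA on the opposite strand that shares bases with it and is printed in the same run of capitals. It had 53.6% G and C and 5 CpG. The Slc13a3 stretch held GGGCGG at 129 and 65 bases and TGACG at 201 bases, with 67.6% G and C and 14 CpG. Of 32851 promoters of the same length, 22.8% held TATAA, 2.56% GTTAAC, 33.8% CCAAT, 32.7% GGGCGG and 17.8% TGACG, and the median promoter had 52.4% G and C and 6 CpG. These matches describe letters and show no binding.

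On the arrays 44.4 to 56.0% of spots were well above background and none of the gene spots were saturated. Brightness differed with diet in WSB/EiJ and C3H/HeJ. The 75th percentile before scaling was 334 to 386 on WSB/EiJ CFD against 165 to 185 on WSB/EiJ control arrays. It was 238 to 360 against 158 to 226 in C3H/HeJ, and 205 to 299 against 203 to 235 in A/J. Scaling on that percentile sets these levels equal. Of the A/J arrays, replicate 4 on the CFD diet lay nearest to the control arrays for Slc13a2, Slc13a3 and Slc13a5. Without both A/J arrays numbered 4, the Slc13a2 change in A/J was -3.76 on the log2 scale in place of -3.21. The number of genes called for diet in A/J was then 2410 in place of 1601. In Slc13a2 these were the highest CFD and the lowest control array of A/J. Its wider change thus came with the choice of arrays and supports nothing further.

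Slc13a2 had a lower signal on the CFD diet than on the control diet in every strain, on 12 of 12 arrays against the controls of the same strain. The probe lies on chromosome 11, from 78210807 to 78210866 on the minus strand (build mm9, NCBI37), and was well above background on all 24 arrays. In A/J livers it gave 13.6, 11.7, 9.26 and 29.3% on the CFD diet, against 212, 97.6, 176 and 86.1% on the control diet. The highest CFD array lay well under the lowest control array.

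In C3H/HeJ livers Slc13a2 gave 27.5, 13.7, 40.9 and 104% on the CFD diet, against 355, 532, 516 and 354% on the control diet. The CFD arrays spread more widely here than in the other strains, with replicate 4 the highest, and still did not reach the controls. In WSB/EiJ livers it gave 11.9, 17.2, 30.9 and 21.4% on the CFD diet, against 1659.6, 1521, 2783 and 1621% on the control diet. This was the widest gap of the 3 strains.

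**Figure D1:**
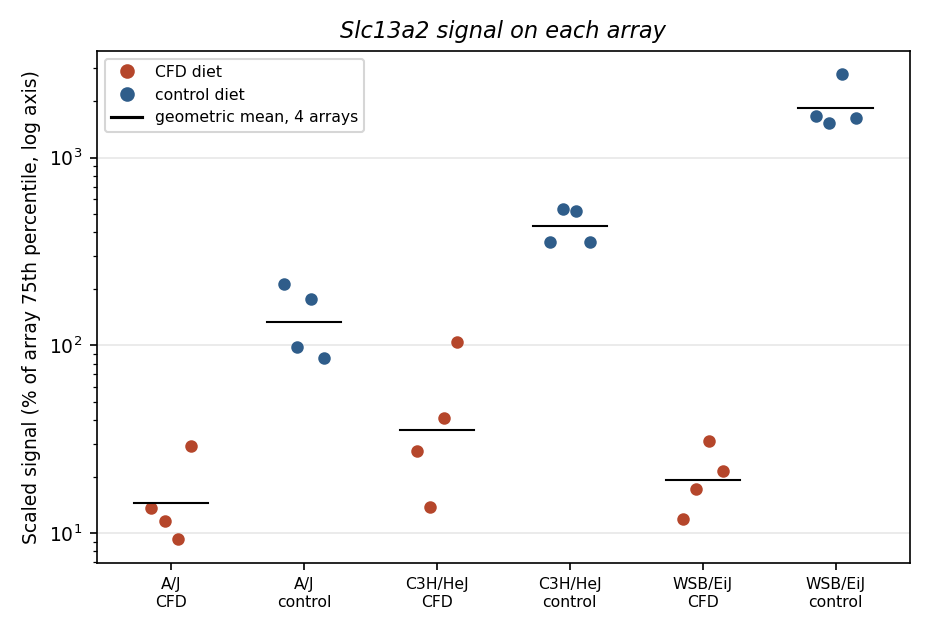
Scaled signal of Slc13a2 (percent of the array's 75th percentile, log axis) on each of 24 arrays, CFD left of control within each strain. Points are arrays and bars are group means of log2 values. The CFD arrays lie between 9.26 and 104% and the control arrays between 86.1 and 2783%, with no overlap within a strain.

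The fitted log2 change was -3.21 ± 0.47 in A/J (9.23-fold lower, SE, n = 4 per group), -3.60 ± 0.47 in C3H/HeJ (12.1-fold lower) and -6.58 ± 0.47 in WSB/EiJ (95.8-fold lower). Counted from the most negative of 15359 changes, Slc13a2 ranked 6 in A/J, 13 in C3H/HeJ and 9 in WSB/EiJ. No other gene had changes as low as those of Slc13a2 in all 3 strains. For comparison, CFD and control groups did not overlap, with CFD lower, for 9.47% of genes in A/J, 17.9% in C3H/HeJ and 45.4% in WSB/EiJ. These values chose the family and support nothing further.

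Differences between these changes come from the same values and are likewise given with no test. The WSB/EiJ change minus the A/J change was -3.38 ± 0.67 on the log2 scale, and minus the C3H/HeJ change -2.98 ± 0.67. Between C3H/HeJ and A/J the difference was -0.39 ± 0.67 (SE).

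On the control diet the strains ranked WSB/EiJ, C3H/HeJ, A/J in Slc13a2, and none of the 3 groups overlapped. WSB/EiJ was 13.8-fold higher than A/J (log2 difference 3.79 ± 0.47, adjusted p = 1.7e-06, limma) and 4.26-fold higher than C3H/HeJ (2.09 ± 0.47, adjusted p = 0.00127). C3H/HeJ was 3.24-fold higher than A/J (1.70 ± 0.47, adjusted p = 0.0117). Of all genes, 45.7%, 41.6% and 24.6% differed in these 3 comparisons. The Slc13a2 tests use control values that also entered the choice of the family, so they are not independent of it.

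On the CFD diet the groups overlapped in Slc13a2. The log2 difference was 0.41 for WSB/EiJ minus A/J (95% interval -0.57 to 1.40, adjusted p = 0.468, limma) and -0.89 for WSB/EiJ minus C3H/HeJ (-1.88 to 0.09, adjusted p = 0.119). For C3H/HeJ minus A/J it was 1.31 (0.32 to 2.29, adjusted p = 0.0532), which was called without C3H/HeJ CFD replicate 2 (1.76, adjusted p = 0.0086) or without A/J CFD replicate 4 (1.65, adjusted p = 0.0215). Of all genes, 59.6%, 51.7% and 21.9% differed in these comparisons. The CFD values tested here likewise entered the choice of the family.

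The same Slc13a2 values were also split by slide of 8 arrays, as a description with no test. The log2 difference, CFD minus control, on slides 1 to 3 was -4.51, -3.25 and -2.75 in A/J, -2.44, -3.96 and -5.27 in C3H/HeJ and -7.48, -5.62 and -6.43 in WSB/EiJ, each from 2 or 3 arrays.

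Markers of liver cell types moved with diet as well, most in WSB/EiJ. Of 9 hepatocyte markers tested, 1 fell in A/J, 7 in C3H/HeJ and 9 in WSB/EiJ, against 1, 1 and 3 after quantile normalization and also with spike-in scaling. In the main fit 4.42%, 27.2% and 47.8% of all genes fell in these strains and 6%, 18.2% and 24.6% rose. Among 15359 genes, 699, 3060 and 5039 fell after quantile normalization and 193, 656 and 1190 with the spike-in scaling. The summed scaled signal of the hepatocyte markers was 680926 to 921667% in A/J CFD against 881161 to 1092156% in A/J control livers. It was 526515 to 858244% in C3H/HeJ CFD against 814131 to 1177703% in C3H/HeJ control, and 445149.9 to 539342% in WSB/EiJ CFD against 919296 to 1020818% in WSB/EiJ control livers. On this scale the hepatocyte sum of every WSB/EiJ CFD array lay below its controls.

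Of 10 macrophage markers, 3 rose in A/J, 7 in C3H/HeJ and 8 in WSB/EiJ, where the sum was 19336 to 24999% on the CFD diet against 5030.1 to 5858% on the control diet. In A/J the macrophage sum was 22599 to 26739% against 13296 to 22148%, and in C3H/HeJ 16023 to 24685% against 9402 to 14045%. Of 10 stellate cell and matrix markers, 3 rose in A/J, 8 in C3H/HeJ and 9 in WSB/EiJ, where the sum was 26730.2 to 42711% against 6219 to 9056%. Of 8 biliary markers, 0 rose in A/J, 2 in C3H/HeJ and 6 in WSB/EiJ, and of 4 mesothelial markers 3 rose, all in WSB/EiJ. The mesothelial list includes the keratin Krt18, which is not particular to mesothelium. With the spike-in scaling 7, 9 and 10 macrophage markers rose in A/J, C3H/HeJ and WSB/EiJ, as did 6, 9 and 10 stellate, 0, 5 and 7 biliary and 1, 1 and 3 mesothelial markers. Among all 15359 genes, 3158, 6435 and 10208 rose with that scaling. Of 8 endothelial markers, 1, 2 and 2 rose and 0, 0 and 3 fell in A/J, C3H/HeJ and WSB/EiJ, but 2, 4 and 7 rose and 0 fell with the spike-in scaling. Of 9 lymphocyte markers, 0, 3 and 3 rose and 1, 2 and 3 fell in the same order of strains. The part of these markers in the Slc13 results was not tested. In bulk tissue, fewer cells of a type and less RNA per cell cannot be told apart.

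Since Slc13a2 is best known from kidney and intestine, markers of those tissues were read too. Of 9 kidney tubule markers, the water channel Aqp2 was well above background on 24 arrays, the phosphate transporter Slc34a1 on 19, the endocytic receptor Lrp2 on 12 and Kap on 9. Slc5a2 was so on 2, Slc12a1 and Slc12a3 on 1, and Umod, a urinary protein, and Slc22a12, a urate transporter, on 0. The summed kidney signal was 60.3 to 97.0% in A/J CFD against 76.6 to 149% in A/J control livers, and 56.2 to 86.8% in C3H/HeJ CFD against 80.1 to 115% in C3H/HeJ control livers. In WSB/EiJ it was 59.7 to 146% in CFD against 171 to 271.96% in control livers. The kidney sum was thus highest in the WSB/EiJ controls, as was Slc13a2. Of 3 kidney markers tested, 0, 1 and 3 fell in A/J, C3H/HeJ and WSB/EiJ (0 in each with spike-in scaling).

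Of 7 intestinal markers, the fatty acid-binding protein Fabp2 was well above background on 24 arrays, Vil1 (villin) on 19, Cdh17 on 1 and Cdx2, Lct, Muc2 and Sis on 0. Their sum was higher on the CFD diet, with 10404 to 11305% against 4443 to 6225% in A/J, 10468 to 18302% against 7598 to 8894% in C3H/HeJ and 5359 to 7839% against 3538 to 5015% in WSB/EiJ. The other markers were above background on 1 array at most, so the sum rests mainly on Fabp2 and Vil1. Of these 2, the only intestinal markers tested, 1, 2 and 2 rose, with median log2 changes of 0.12, 1.60 and 2.29. In A/J the higher sum thus does not stand for both markers. The part of the kidney and intestinal markers in the Slc13 results was likewise not tested.

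Slc13a3, the high-affinity dicarboxylate transporter, rose on the CFD diet in all 3 strains, and no CFD array overlapped the controls of its strain. Of all genes, 6% rose in A/J, 18.2% in C3H/HeJ and 24.6% in WSB/EiJ, and 4.23% rose in all 3. CFD and control groups did not overlap, with CFD higher, for 8.51%, 14.9% and 23.3% of genes. The probe lies on chromosome 2, from 165230796 to 165230855 on the minus strand (mm9).

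In A/J livers Slc13a3 gave 2049, 1756, 1853 and 1268% on the CFD diet, against 680.4, 897, 607 and 707% on the control diet. In C3H/HeJ it gave 1552, 3040.4, 2024 and 2317% against 714, 688, 616 and 560.2%. In WSB/EiJ it gave 825, 943, 945 and 1015% against 745, 631, 517 and 569.9%. The control groups lay close together, and the CFD arrays of WSB/EiJ stayed nearest to their controls.

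The rise was 2.38-fold in A/J (log2 change 1.25 ± 0.18, adjusted p = 0.00019, limma) and 3.38-fold in C3H/HeJ (1.76 ± 0.18, adjusted p = 4.5e-07). In WSB/EiJ it was 1.52-fold (0.61 ± 0.18, adjusted p = 0.00475). Within slides the log2 difference was positive on each slide in each strain, between 0.39 and 2.14.

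Diet effects differed for 49.2% of genes between WSB/EiJ and A/J, for 26.4% between WSB/EiJ and C3H/HeJ and for 3.5% between C3H/HeJ and A/J. The Slc13a3 rise in WSB/EiJ was smaller than in C3H/HeJ (difference of log2 changes -1.15 ± 0.25, adjusted p = 0.00283, limma). Against A/J the difference was -0.65 ± 0.25 (adjusted p = 0.0399), and this call was lost when any of 10 single arrays was left out (adjusted p 0.0553 to 0.0862) and under quantile (0.270), median (0.138) or spike-in (-0.03, adjusted p = 0.954) scaling, after normexp background correction (0.242) and with no background filter (0.0661). The spike-in scaling also ended the call against C3H/HeJ (-0.67, adjusted p = 0.103). Between C3H/HeJ and A/J the difference was 0.50 (95% interval -0.02 to 1.03, adjusted p = 0.274).

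On the control diet the Slc13a3 groups overlapped, with log2 differences of -0.16 for C3H/HeJ minus A/J, -0.23 for WSB/EiJ minus A/J and -0.07 for WSB/EiJ minus C3H/HeJ (adjusted p = 0.571, 0.311 and 0.775, limma). On the CFD diet WSB/EiJ was 1.83-fold lower than A/J (-0.88, adjusted p = 0.00032) and 2.33-fold lower than C3H/HeJ (-1.22, adjusted p = 1.1e-05), with no overlap in either case. C3H/HeJ minus A/J was 0.35 on that diet (adjusted p = 0.182), with overlap, and was called without C3H/HeJ CFD replicate 1 (0.51, adjusted p = 0.0449). WSB/EiJ thus lay apart from both other strains in Slc13a3 on the CFD diet. With the spike-in scaling WSB/EiJ minus A/J was called on the control diet as well (-0.54, adjusted p = 0.0428).

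Slc13a5, the citrate transporter, rose on the CFD diet in WSB/EiJ, and its A/J and C3H/HeJ groups overlapped. Of all genes, 10.4% were called for diet in A/J, 45.4% in C3H/HeJ and 72.4% in WSB/EiJ. It has a pair of probes, and the brighter one represented the gene (chromosome 11, 72055587 to 72055646 on the minus strand, mm9). In WSB/EiJ livers it gave 402, 374, 512 and 416% on the CFD diet, against 143, 106, 88.7 and 154% on the control diet. The rise was 3.53-fold (log2 change 1.82 ± 0.38, adjusted p = 0.00023, limma), with no overlap, and the other probe gave 1.67 (adjusted p = 0.0008).

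In A/J livers Slc13a5 gave 428, 276, 381 and 153% on the CFD diet, against 149, 218, 143 and 305% on the control diet. Replicate 4 crossed the other arrays of its group in both diets. The log2 change was 0.57 (95% interval -0.21 to 1.36, adjusted p = 0.348, limma), and 1.09 without both arrays numbered 4 (adjusted p = 0.061). These were the lowest CFD and the highest control array, so the larger change came with leaving them out.

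In C3H/HeJ livers it gave 144, 427, 173 and 102% on the CFD diet, against 79.1, 98.9, 100.1 and 175% on the control diet. The change was 0.75 (-0.04 to 1.53, adjusted p = 0.112, limma), and it was called without C3H/HeJ CFD replicate 4 (1.02, adjusted p = 0.0311), with the spike-in scaling (1.22, adjusted p = 0.0329) and with array weights (1.08, adjusted p = 0.0120). Replicate 2 was the high array and replicate 4 the low one of its group. Within slides the 3 differences were -0.40, 0.70 and 2.11 in C3H/HeJ, of both signs, and 1.46 to 2.28 in WSB/EiJ.

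Although Slc13a5 passed the test in 1 strain, the difference between strains did not pass. It was 1.25 for WSB/EiJ minus A/J (95% interval 0.14 to 2.36, adjusted p = 0.0580, limma), 1.07 for WSB/EiJ minus C3H/HeJ (-0.04 to 2.19, adjusted p = 0.137) and 0.17 for C3H/HeJ minus A/J (adjusted p = 0.877). The WSB/EiJ minus A/J difference was called in 9 of 42 alternatives. These were spike-in scaling (1.87, adjusted p = 0.0248), normexp background correction (0.0430), a fit of only the compared groups (0.0277), and leaving out A/J CFD replicate 1 or 3, A/J control replicate 1 or 3, or C3H/HeJ CFD replicate 2 or 4 (0.0249 to 0.0499). Without C3H/HeJ CFD replicate 2, WSB/EiJ minus C3H/HeJ was called too (1.49, adjusted p = 0.0197). On the control diet the strain differences were -0.84, -0.69 and 0.15 for C3H/HeJ minus A/J, WSB/EiJ minus A/J and WSB/EiJ minus C3H/HeJ (adjusted p = 0.113, 0.143 and 0.787). On the CFD diet WSB/EiJ was 2.33-fold higher than C3H/HeJ (1.22, adjusted p = 0.0106), though the groups overlapped, and the call was lost without C3H/HeJ CFD replicate 4 (adjusted p = 0.0510). The other CFD differences were -0.67 for C3H/HeJ minus A/J and 0.55 for WSB/EiJ minus A/J (adjusted p = 0.228 and 0.211), of which C3H/HeJ minus A/J was called without C3H/HeJ CFD replicate 2 (-1.08, adjusted p = 0.0305).

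Slc13a4, the sulfate transporter, passed no diet test and differed between strains. In WSB/EiJ livers it gave 3.71, 3.19, 3.07 and 5.81% on the CFD diet, against 3.12, 3.40, 1.44 and 5.29% on the control diet. It was well above background on 2 of 4 WSB/EiJ CFD arrays and on 0 of 4 WSB/EiJ control arrays, so the WSB/EiJ control level has only an upper bound. The probe lies on chromosome 6, from 35217971 to 35218030 on the minus strand (mm9).

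In A/J livers Slc13a4 gave 39.0, 24.5, 36.7 and 14.5% on the CFD diet, against 13.3, 10.5, 28.2 and 34.6% on the control diet. In C3H/HeJ it gave 49.8, 85.7, 90.7 and 65.9% against 60.6, 57.2, 27.7 and 28.2%. Diet groups overlapped in all 3 strains, with log2 changes of 0.47 in A/J (95% interval -0.42 to 1.36, adjusted p = 0.512, limma), 0.81 in C3H/HeJ (-0.08 to 1.70, adjusted p = 0.128) and 0.35 in WSB/EiJ (-0.54 to 1.24, adjusted p = 0.474). The C3H/HeJ and WSB/EiJ changes were called with the spike-in scaling, and that of C3H/HeJ also after normexp background correction. No difference of diet effect between strains passed (0.34 for C3H/HeJ minus A/J, -0.13 for WSB/EiJ minus A/J and -0.46 for WSB/EiJ minus C3H/HeJ, adjusted p = 0.783, 0.878 and 0.591).

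WSB/EiJ controls were at least 5.33-fold lower in Slc13a4 than A/J controls (adjusted p = 3.3e-05, limma) and at least 11.2-fold lower than C3H/HeJ controls (adjusted p = 5.0e-07). Each bound sets the mean of the brighter group against the lowest signal well above background on each array of the dimmer group, or the probe's own signal where that was higher. On the CFD diet, where 2 of 4 WSB/EiJ arrays measured the probe, the log2 difference was -2.81 for WSB/EiJ minus A/J (adjusted p = 1.4e-05) and -4.22 for WSB/EiJ minus C3H/HeJ (adjusted p = 9.9e-08). These sizes depended on the background correction. The normexp correction added an offset of 50 to every signal, against array medians of 8.52 to 21.1, which narrows differences between dim signals. The parts of the offset and of the correction itself were not tested apart. After normexp correction with quantile normalization the log2 differences were -0.67 and -1.18 on the control diet and -0.77 and -1.61 on the CFD diet, against A/J and C3H/HeJ in that order, well under the bounds above, and all were called (adjusted p = 0.00431, 1.3e-05, 0.00081 and 1.7e-07). C3H/HeJ minus A/J was 1.07 on the control diet (adjusted p = 0.0736), and was called without A/J control replicate 4 (1.36, adjusted p = 0.0354), with array weights (0.0421) and after normexp correction (0.52, adjusted p = 0.0377). On the CFD diet C3H/HeJ was 2.66-fold higher than A/J (1.41, adjusted p = 0.0213), without overlap, and the call was lost without either of A/J CFD replicates 2 and 4 or C3H/HeJ CFD replicates 2 and 3. Whether a strain's sequence under the probe differs was not tested, for this or any member.

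Slc13a1, the other sulfate transporter of the family, and Slc13a2os, a transcript named for the strand opposite Slc13a2, were not well above background on any array and were not tested.

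**Figure D2:**
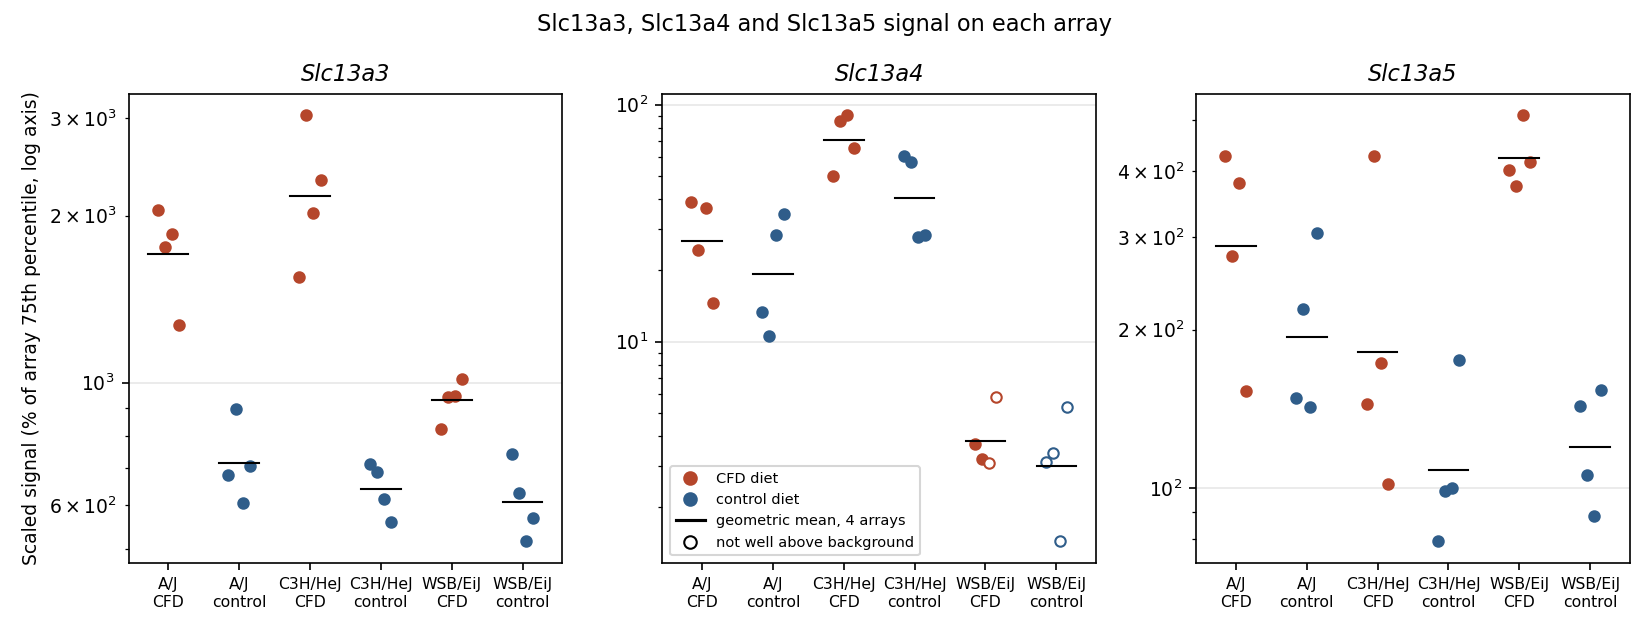
Scaled signal of Slc13a3, Slc13a4 and Slc13a5 (percent of the array's 75th percentile, log axes) on each of 24 arrays, CFD left of control within each strain, with bars at group means of log2 values. Slc13a3 is higher on all CFD arrays, Slc13a5 is separated by diet in WSB/EiJ, and Slc13a4 is low in WSB/EiJ on both diets.

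**Figure D3:**
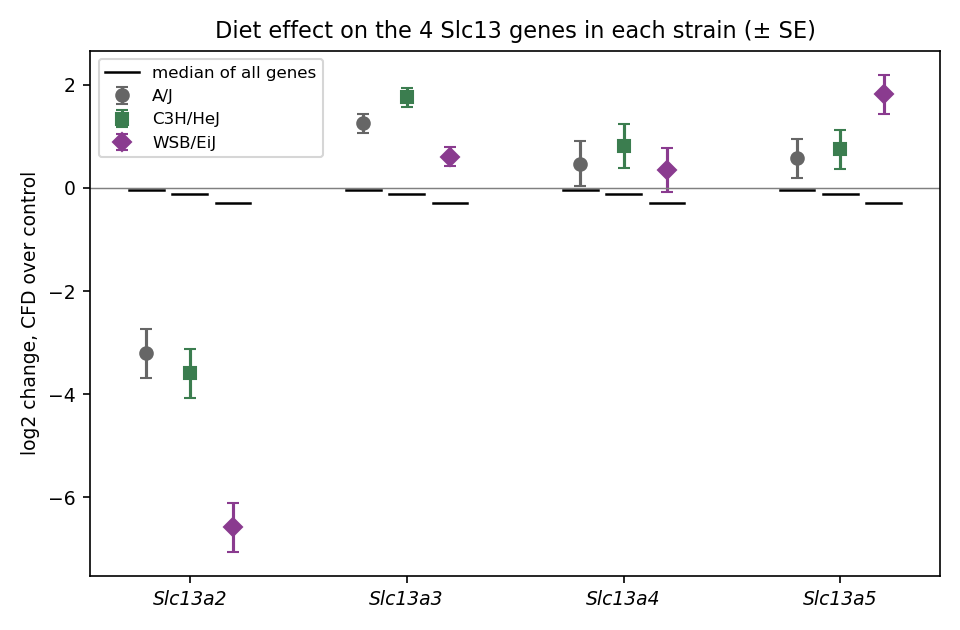
Log2 change with diet (CFD minus control) of the 4 members in A/J, C3H/HeJ and WSB/EiJ, as points with bars of 1 SE from the fit over 24 arrays. Short black lines are the median of all genes in each strain. Slc13a2 lies at -3.21, -3.60 and -6.58, and Slc13a3 at 1.25, 1.76 and 0.61.

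Members were also compared within groups, as deviations of each array from its group mean on the log2 scale. Of 6 pairs of members over 24 arrays, Slc13a2 and Slc13a5 had Pearson's r = -0.73 (permutation p = 0.00351 with arrays permuted within groups, adjusted over 6 pairs 0.0211). Spearman's rho was -0.56 (permutation p = 0.0161, adjusted 0.0967), which did not pass. Without the 2 arrays farthest from the median in Slc13a2, r was -0.55 over 22 arrays. Within slides of 8 arrays r was -0.83, -0.24 and -0.86.

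Single arrays carried much of this relation. C3H/HeJ CFD replicate 2 had the lowest Slc13a2 (13.7%) and the highest Slc13a5 (427%) of its group, and replicate 4 the highest Slc13a2 (104%) and the lowest Slc13a5 (102%). A/J CFD replicate 4 likewise had the highest Slc13a2 (29.3%) and the lowest Slc13a5 (153%). In WSB/EiJ CFD replicate 3 both were the highest of the group (30.9% and 512%). The other 5 pairs had adjusted permutation p-values of 0.139 or more for Pearson's r.

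**Figure D4:**
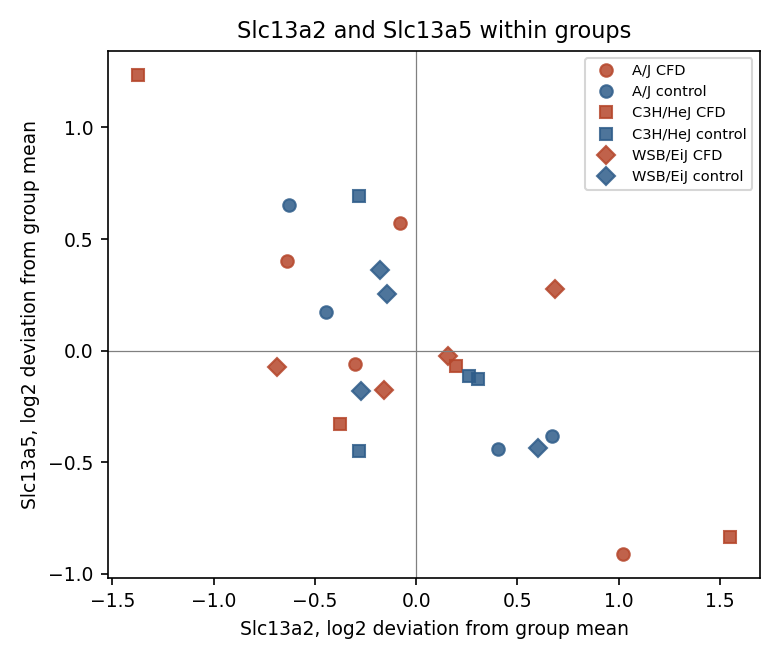
Deviation of Slc13a5 (vertical axis) against that of Slc13a2 (horizontal axis) from the group mean, in log2 units, for 24 arrays marked by group. Arrays above their group mean in Slc13a2 tend to lie below it in Slc13a5, r = -0.73, and -0.55 without the 2 farthest arrays. Within WSB/EiJ CFD r was 0.79.

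The 5 genes most like Slc13a2 across arrays were Dhrs3, Sephs2, Erp27, Asl and Rps2, with Pearson's r of 0.970, 0.967, 0.966, 0.966 and 0.964 of scaled log2 signal over 24 arrays, among 14617 genes. With group means removed r was 0.725, 0.765, 0.824, 0.798 and 0.822. These values share the arrays, the groups and the scaling, and carry no test. Dhrs3 reduces retinal, Sephs2 makes the selenium donor for selenoproteins, Erp27 is a protein of the endoplasmic reticulum, Asl is a urea cycle enzyme and Rps2 is a ribosomal protein.

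The diet changes of these genes were all smaller than that of Slc13a2. Since these genes were picked for likeness to Slc13a2 on the same arrays, a fall with diet came with the choice. Their changes and calls are thus a description and support nothing further. Erp27 fell by 0.98 in A/J, 1.43 in C3H/HeJ and 2.18 in WSB/EiJ on the log2 scale. Dhrs3 fell by 0.50, 0.53 and 1.33, calls that the spike-in scaling ended in A/J and C3H/HeJ and quantile normalization in C3H/HeJ. Rps2 had -0.31, -0.49 and -0.92, of which the A/J value did not pass. With the spike-in scaling Rps2 was at 0.03 in A/J and in WSB/EiJ. Most like Slc13a3 were Lect2, Mmp13 and Slc35f2 (r = 0.884, 0.881 and 0.880). Most like Slc13a4 were Tamm41, Nxpe2 and Tnfsf10 (0.937, 0.937 and 0.928), and most like Slc13a5 were Eid2, Ctbp2 and Cyria (0.882, 0.877 and 0.873).

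The pathways that make or use the transported carboxylates were read from lists of 18 tricarboxylic acid cycle enzymes, 11 genes of cytosolic citrate and malate use, 10 mitochondrial carboxylate carriers, 20 other plasma membrane anion transporters, 12 gluconeogenesis genes and 12 regulators and receptors. Their direction depended on the scaling, since the median log2 change of all genes was -0.05 in A/J, -0.12 in C3H/HeJ and -0.29 in WSB/EiJ here, and 0.29, 0.35 and 0.66 when arrays were scaled on the spike-in probes. Genes higher on the CFD diet made up 57.6%, 40.0% and 34.0% of the calls in the 3 strains, and 94.2%, 90.7% and 89.6% with the spike-in scaling. Of all genes, 4.42% fell in A/J, 27.2% in C3H/HeJ and 47.8% in WSB/EiJ on the 75th percentile scaling, and 6%, 18.2% and 24.6% rose. Among 15359 genes, 699, 3060 and 5039 fell and 1152, 3367 and 4969 rose after quantile normalization. The spike-in scaling gave 193, 656 and 1190 genes that fell and 3158, 6435 and 10208 that rose. Median centring gave 305, 2879 and 5406 that fell. Of the genes named below, Sucla2, Suclg2, Sdha, Idh1, Mpc2, Stat3 and G6pc lost the calls given for them with the spike-in scaling, as did Mdh1 in A/J and Slc25a21 in C3H/HeJ. Idh2, Pck1, Slc37a4, Mpc1, Slc16a7, Slc17a3, Slc22a28 and Nr1i3 were called under quantile, median and spike-in scaling alike.

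Of the 18 tricarboxylic acid cycle enzymes, 0 fell and 1 rose in A/J, 6 fell and 1 rose in C3H/HeJ, and 15 fell and 0 rose in WSB/EiJ (medians -0.04, -0.26 and -0.87). In the same order of strains, 0, 3 and 8 fell and 3, 4 and 5 rose after quantile normalization, and 0, 0 and 1 fell and 7, 7 and 7 rose with the spike-in scaling. Idh2, the mitochondrial NADP-dependent isocitrate dehydrogenase, rose in A/J, to 11484, 11637, 10946 and 10480.3% on the CFD diet against 7959, 6900, 8193 and 7139% on the control diet (log2 change 0.56, adjusted p = 0.00090, limma). In C3H/HeJ it rose by 0.81 (adjusted p = 3.1e-06). Suclg2, a succinyl-CoA ligase subunit, fell by 1.09 in WSB/EiJ, and Sdha, which oxidises succinate, by 0.92 there, against 0.04 for Sdha with the spike-in scaling. Sucla2 fell by 0.70 in C3H/HeJ.

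Of the 11 genes of cytosolic citrate and malate use, 5 fell and 0 rose in A/J, 3 fell and 2 rose in C3H/HeJ, and 6 fell and 1 rose in WSB/EiJ (medians -0.53, -0.05 and -0.92). In the same order of strains, 5, 2 and 4 fell and 0, 2 and 2 rose after quantile normalization, and 1, 1 and 2 fell and 0, 2 and 3 rose with the spike-in scaling. With median centring 2, 2 and 5 fell. Idh1, the cytosolic isocitrate dehydrogenase, gave 128, 125, 147 and 140.3% in WSB/EiJ CFD livers, against 304, 296, 346 and 259.7% in WSB/EiJ control livers. It fell by 0.63 in A/J, 0.75 in C3H/HeJ and 1.15 in WSB/EiJ (adjusted p = 0.0108, 0.00067 and 1.3e-06, limma). Mdh1, cytosolic malate dehydrogenase, fell by 0.53, 0.69 and 1.28 in the same order of strains.

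Of 9 mitochondrial carboxylate carriers tested, 0 changed in A/J, 3 fell and 1 rose in C3H/HeJ, and 8 fell and 0 rose in WSB/EiJ (medians -0.04, -0.23 and -0.66). In the same order of strains, 0, 2 and 4 fell and 1, 1 and 1 rose after quantile normalization, and 0, 0 and 1 fell and 3, 3 and 4 rose with the spike-in scaling. Slc25a21, the oxodicarboxylate carrier, fell by 0.51 in C3H/HeJ and 1.63 in WSB/EiJ. The pyruvate carrier subunit Mpc1 rose by 0.42 in C3H/HeJ, and Mpc2 fell by 1.08 in WSB/EiJ. On this scaling Mpc1 was lower on the CFD diet in WSB/EiJ, at 12396 to 14032% against 16663 to 18091%. Slc25a18 was not tested, being too dim.

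Of 19 other plasma membrane anion transporters tested, 1 fell and 2 rose in A/J, 9 fell and 5 rose in C3H/HeJ, and 12 fell and 5 rose in WSB/EiJ (medians -0.24, -0.40 and -1.06). After quantile normalization 1, 6 and 11 fell and 2, 5 and 6 rose, and with the spike-in scaling 0, 5 and 8 fell and 4, 5 and 8 rose. Slc22a27, of the organic anion transporter family, gave 196, 343, 316 and 543% in A/J CFD livers, against 46.5, 25.0, 68.5 and 31.7% in A/J control livers (log2 change 3.04, adjusted p = 0.00034, limma). In C3H/HeJ CFD livers it gave 91.7, 90.0, 216 and 30.7%, at least 29.99-fold above C3H/HeJ controls, where it was not well above background on any array. Slc22a28, of the same family, fell by 1.54 in C3H/HeJ and 3.45 in WSB/EiJ. Slc17a3, an anion transporter related to phosphate carriers, fell by 1.89 in WSB/EiJ, and the monocarboxylate transporter Slc16a7 rose by 1.16 in A/J.

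Of 12 gluconeogenesis genes, 1 fell and 0 rose in A/J, 5 fell and 1 rose in C3H/HeJ, and 9 fell and 1 rose in WSB/EiJ (medians -0.31, -0.44 and -1.02). After quantile normalization 2, 5 and 1 fell and 1, 2 and 1 rose, and with the spike-in scaling 0, 3 and 1 fell and 1, 3 and 2 rose. Pck1, the cytosolic phosphoenolpyruvate carboxykinase, fell by 2.06 in C3H/HeJ. Its mitochondrial counterpart Pck2 rose at least 1.51-fold in C3H/HeJ and at least 3.15-fold in WSB/EiJ, where controls were not well above background. Slc37a4, the glucose 6-phosphate transporter, fell by 1.73 in WSB/EiJ. G6pc fell by 1.17 in A/J (adjusted p = 0.0465, limma), a call that leaving out many of the single arrays ended (0.136 without A/J CFD replicate 1). On this scaling WSB/EiJ CFD livers were also lower in G6pc (6190 to 9126% against 15219 to 26873%) and Pck1 (23875 to 35930% against 54962 to 86758%). The diet groups overlapped in C3H/HeJ for G6pc and in A/J for Pck1.

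Of 11 regulators and receptors tested, 1 fell in A/J, 4 in C3H/HeJ and 9 in WSB/EiJ, and 0 rose (medians -0.14, -0.24 and -0.69). After quantile normalization 2, 1 and 4 fell and 0, 1 and 2 rose, with the spike-in scaling 0, 0 and 2 fell and 1, 1 and 4 rose, and with median centring 0, 1 and 8 fell. Nr1i3, the constitutive androstane receptor, gave 240.3, 179, 299 and 158% in WSB/EiJ CFD livers, against 1369.9, 1400.4, 1924 and 1785% in WSB/EiJ control livers (log2 change -2.92, adjusted p = 5.4e-09, limma). Hnf4a, a hepatocyte transcription factor, fell by 1.28 in WSB/EiJ, a call lost after normexp background correction. Stat3 fell by 0.61 in A/J and 0.55 in C3H/HeJ.

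**Figure D5:**
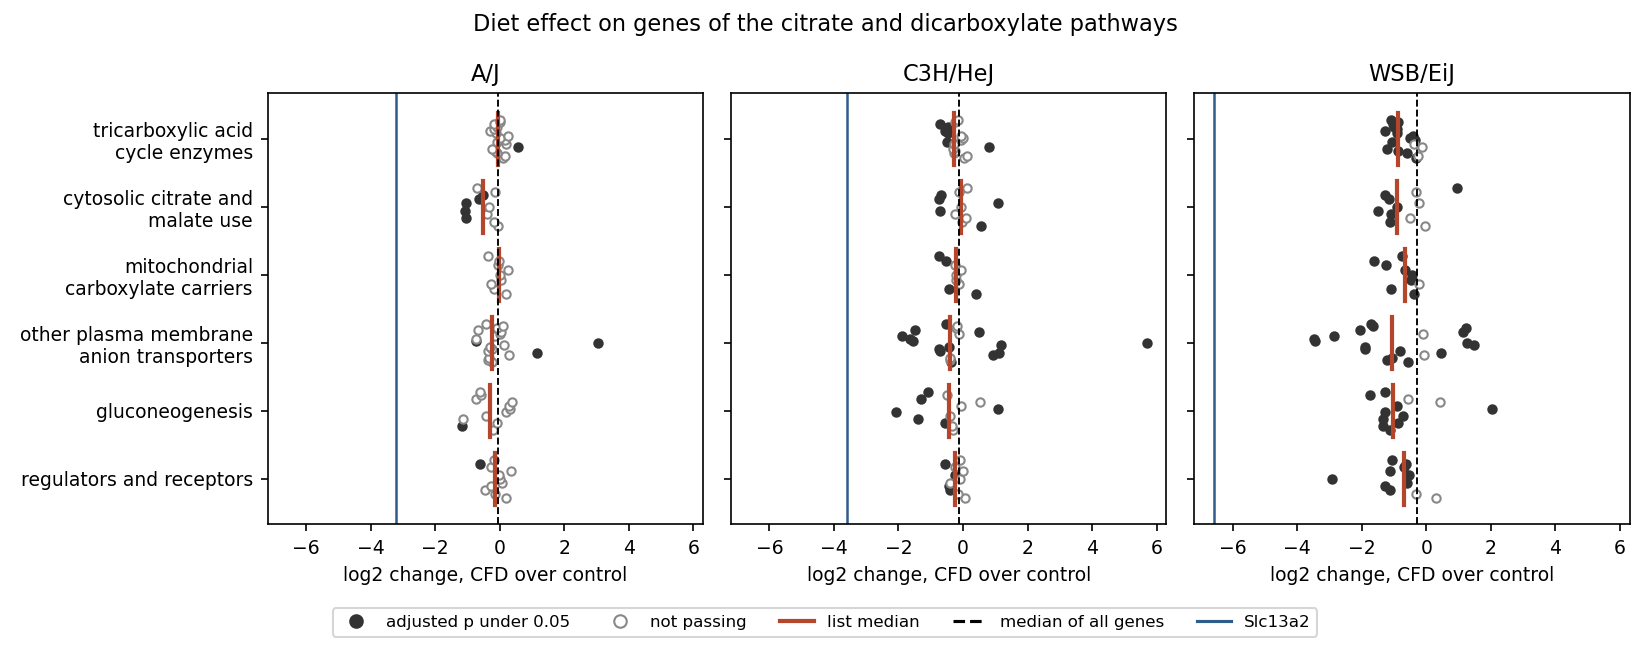
Log2 change with diet (CFD minus control) of every tested gene of the 6 pathway lists in A/J, C3H/HeJ and WSB/EiJ, one point per gene. Filled points passed an adjusted p of 0.05 and open points did not, red bars are list medians, dashed lines the median of all genes and blue lines Slc13a2. Scaled on the 75th percentile, the WSB/EiJ points lie lower than the A/J points, with list medians of -0.66 to -1.06 in WSB/EiJ.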

How the data were processed

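Liver RNA of 24 samples (4 for each strain on each diet) was hybridised to 1-colour arrays on 3 slides. Per the file headers, the authors computed each spot intensity in Agilent Feature Extraction 10.7, with background subtraction and detrending inside the array. Flags of 0 or 1 per the file headers mark other spot properties. The authors' deposited table of normalized intensities proved to be the same signals rescaled by 1 factor for every array, and 0 of its columns lacked a sample.

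Here 3332 outlier spots were left out, log2 signals were scaled on each array's 75th percentile, and a probe was kept if every array of some group had it well above background (28163 probes, of which 20548 had a gene name, through accession, symbol or synonym, or as in the file). The brightest probe stood for a gene, which gave 15359 genes. They were fitted with limma 3.58.1 in R 4.3.3, with 1 mean per group, in 12 comparisons at an adjusted p of 0.05. The fit was tested on simulated data. Relations, promoters and figures used Python 3.11.15 and matplotlib 3.10.9. No depth applies to arrays, and 4 arrays per group limit the precision.

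The members and lists were chosen with earlier results of these data known. Named genes are the 4 members, Slc13a1, up to 2 genes of each pathway list and diet comparison with the lowest adjusted p, and the genes most alike in pattern (5 for Slc13a2, 3 for each other member, among genes above background on at least 12 arrays). Marker lists covered hepatocytes, macrophages, stellate cells and matrix, bile ducts, endothelium, lymphocytes, mesothelium, kidney and intestine. The values of 1 listed regulator are not reported here. Alternatives changed the scaling, background correction, probe filter, probe per gene, slide or replicate block, threshold, prior, array weights and the arrays in the fit. The normexp background correction used an offset of 50 and was followed by quantile normalization.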

Additional observations from a re-analysis of the deposited data

Results flagged for a closer look

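Slc13a2 in WSB/EiJ control replicate 3 was 2783%, far above the 1521 to 1659.6% of the other 3 arrays of its group. On the log2 scale its gap to the nearest array was 0.855 of the group's range, over the critical value for 4 samples. Among 24 groups of member values tested in this way, chance flags about 1 in 20.

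The diet effect of Slc13a3 differed between strains by tests of the difference itself, -0.65 for WSB/EiJ minus A/J and -1.15 for WSB/EiJ minus C3H/HeJ on the log2 scale. The same differences for Slc13a2 were -3.38 and -2.98, and are a description, since its diet changes chose the family. The Slc13a3 difference between WSB/EiJ and A/J was lost when any of 10 single arrays was left out.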

How the results depend on the processing

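The lower signal of Slc13a2, the rise of Slc13a3 in all 3 strains and the rise of Slc13a5 in WSB/EiJ kept their direction under every alternative. Both rises stayed called, except Slc13a3 in WSB/EiJ where a log2 change of at least 1 was required. Of 2004 alternative values of the members, 1919 kept direction and side of the threshold, 29 lost the call, 32 gained it, 20 changed sign and 4 moved by more than the spread. The cause was not tested unless the alternative itself has fewer genes or arrays. Slc13a2 changed by -1.99 in A/J, -2.76 in C3H/HeJ and -5.10 in WSB/EiJ with normexp background correction, and by -5.63 in WSB/EiJ with spike-in scaling. The normexp values include an offset of 50, which narrows differences between dim signals. Its difference on the CFD diet, C3H/HeJ minus A/J, was called at 1.31 with the filter of probes above background everywhere (adjusted p = 0.0455), a random slide block (0.0478) or a trended prior (0.0451), at 1.301 after quantile normalization (just under 0.05), at 1.37 with spike-in scaling (0.0247) and at 1.65 without both A/J arrays numbered 4 (0.0204), and ranged from 0.79 to 1.76 with single arrays left out. On the control diet that difference (1.70) missed an adjusted p of 0.01. The difference of its diet effect, C3H/HeJ minus A/J, was 0.16 without both A/J arrays numbered 4 and -0.91 to 0.067 with single arrays left out. WSB/EiJ minus C3H/HeJ on the CFD diet was -1.35 to -0.38, and called (adjusted p = 0.0161) without C3H/HeJ CFD replicate 2. In the main fit neither of these CFD differences of Slc13a2 was called (adjusted p = 0.0532 and 0.119, limma). The Slc13a2 values entered the choice of the family, so its calls here describe the processing and support nothing further.

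Other changes of sign concerned values near 0. Slc13a4's diet effect was -0.24 for C3H/HeJ minus A/J without both A/J arrays numbered 4, 0.14 (quantile) and 0.50 (spike-in) for WSB/EiJ minus A/J, and 0.021 (spike-in) for WSB/EiJ minus C3H/HeJ. With single arrays left out it was -0.0066 to 0.62 in WSB/EiJ and -0.48 to 0.16 for WSB/EiJ minus A/J. Slc13a5's diet effect for C3H/HeJ minus A/J was -0.047 with slide as a fixed block, -0.35 without both A/J arrays numbered 4 and -0.24 to 0.45 with single arrays left out. Its control diet difference, WSB/EiJ minus C3H/HeJ, was -0.087 with spike-in scaling and -0.0024 to 0.38 with single arrays left out, and that of Slc13a3 was -0.17 to 0.0063. With spike-in scaling Sdha was at 0.037 in WSB/EiJ and Rps2 at 0.029 in A/J and 0.032 in WSB/EiJ.

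Of all genes, those called for diet in A/J (1601) numbered 620 at an adjusted p of 0.01, 540 at a log2 change of at least 1, 3763 with array weights, 966 with only the compared groups, 3351 with spike-in scaling, 2410 without both arrays numbered 4 and 775 to 2094 with single arrays left out. In C3H/HeJ (6977) they numbered 4546, 2250 and 4568 at 0.01, at a log2 change of at least 1 and with only the compared groups, and in WSB/EiJ (11120) 4886 at a log2 change of at least 1. The C3H/HeJ minus A/J difference of diet effects (538) had 164 at 0.01, 348 at a log2 change of 1, 1531 with array weights, 338 with no background filter, 357 with the filter of probes above background everywhere, 227 with only the compared groups, 222 with spike-in scaling, 264 without both arrays numbered 4 and 322 to 1863 with single arrays left out. WSB/EiJ minus A/J (7550) had 3454 at a log2 change of 1, and WSB/EiJ minus C3H/HeJ (4056) had 1902 at 0.01, 1703 at a log2 change of 1 and 2515 with median centring. On the control diet, C3H/HeJ minus A/J (3776) had 2279 at 0.01, 1212 at a log2 change of 1 and 2486 with spike-in scaling, and WSB/EiJ minus A/J (7015) and minus C3H/HeJ (6383) had 2413 and 2173 at a log2 change of 1. On the CFD diet, C3H/HeJ minus A/J (3371) had 2044 at 0.01, 1141 at a log2 change of 1 and 2245 with only the compared groups, and WSB/EiJ minus A/J (9154) and minus C3H/HeJ (7938) had 3503 and 2885 at a log2 change of 1. Higher calls made up 62.2%, 52.4% and 49.7% of diet calls in A/J, C3H/HeJ and WSB/EiJ after quantile normalization and 75.2%, 48.4% and 43.9% with median centring.

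Replicate numbers did not pair the arrays, since deviations of arrays with the same number in a strain correlated at -0.35 to 0.06. With the replicate number as a block 1433, 6770 and 11045 genes were called for diet in the 3 strains, and no call of a member changed. Slc13a4 in WSB/EiJ is limited by signal close to background.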

Other observations

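Genes next to Slc13a2 on the chromosome, chosen by position in the RefSeq table of genes and not by their values, moved in both directions with diet. Unc119, on one side, rose by 0.66 in A/J, 0.80 in C3H/HeJ and 0.86 in WSB/EiJ on the log2 scale (adjusted p = 0.00046, 8.5e-06 and 4.5e-07, limma). Slc46a1, on the other side, encodes the proton-coupled folate transporter. It had -0.21 in A/J (adjusted p = 0.375), and fell by 0.64 in C3H/HeJ (adjusted p = 0.0018) and 1.10 in WSB/EiJ (adjusted p = 1.4e-06). Vtn, the next gene, which encodes vitronectin, had -0.36 in A/J (adjusted p = 0.0761) and fell by 0.58 in C3H/HeJ and 1.03 in WSB/EiJ. Farther out on the side of Unc119, in A/J, Pigs had -0.07 (adjusted p = 0.692, limma) and Aldoc fell by 0.78 (adjusted p = 0.0216). Of all genes, 4.42%, 27.2% and 47.8% fell and 6%, 18.2% and 24.6% rose in A/J, C3H/HeJ and WSB/EiJ. The median log2 change of all genes was -0.12 in C3H/HeJ and -0.29 in WSB/EiJ here, against 0.35 and 0.66 with spike-in scaling. Whether the directions of the neighbours hold with that scaling was not tested. The neighbour tests were made on 2 sides of 1 gene and say nothing of a shared cause.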
